A study of Rattus norvegicus with 4 samples.

Results

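The myeloid C-type lectin receptors described here are 8 genes, CLEC4E, CLEC4D, CLEC7A, CLEC6A, CLEC4A, CLEC10A, CLEC5A and CLEC12A, in the middle ear mucosa of Sprague-Dawley rats. They were taken by gene name from an expression table of 27832 features, in which 12 features carried 1 of the 8 names, and for each name the feature with the highest mean level over the libraries was used. Rats received media only (the vehicle control, called media), methicillin-resistant Staphylococcus aureus (MRSA), Pseudomonas aeruginosa (PA) or both species together (MRSA + PA) in the middle ear, and the mucosa was scraped from the bulla after 1 week. Bacteria were given in 50 µL into the right ear. Poly(A) RNA was sequenced as 1 library per condition, 4 libraries in all, and the number of rats behind each library is not given. The treatment protocol describes MRSA for every sample, so the conditions come from the label of what each was inoculated with. With 1 library per condition no difference has a replicate check, and no test was made. Levels are FPKM, fragments scaled to transcript length and to the size of the library, and carry no interval because the number of fragments behind each value is unknown.

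C-type lectin receptors of myeloid cells are surface proteins that bind sugars and lipids of microbes or of damaged cells. The activating ones signal through an ITAM, a tyrosine motif that they carry themselves or borrow from an adaptor (FCER1G or TYROBP), to the kinase SYK and on to a complex of CARD9, BCL10 and MALT1. The inhibitory ones carry an ITIM, which recruits phosphatases such as PTPN6. In mucosal tissue these receptors are known mainly from macrophages, dendritic cells, monocytes and neutrophils.

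In the authors' table, positions put 7 of the 8 genes on chromosome 4 and CLEC10A on chromosome 10. The genome build is not named, so these positions are as the table gives them. CLEC4D (223270029 to 223282584, plus strand) and CLEC4E (223287186 to 223293143, minus strand) were neighbours 4.6 kb apart, with their 3′ ends facing each other. The nearer of the CLEC6A features lay 33.7 kb from CLEC4D, and 36.5 kb separated the other from the nearest feature named CLEC4A, so that these 4 names shared a cluster. CLEC12A and CLEC7A lay elsewhere on the chromosome, 88.7 kb apart. Whether the counting used strand is not stated, so reads from overlapping transcripts of neighbouring genes may not be separated.

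Upstream sequences were available from RefSeq (build GRCr8) for 6 of the 8 genes, all but CLEC6A and CLEC10A. They were searched on both strands for GAGGAA, a purine-rich core of the kind bound by PU.1, the transcription factor of myeloid cells; every GAGGAA also holds the shorter GGAA, which 93.2% of all 33469 upstream windows of 250 bases contain. The RefSeq window of CLEC4A lies on the plus strand, whereas the CLEC4A feature used for the levels lies on the minus strand, so that window is not tied to these levels and is not counted. Of the 5 windows on the strand of the feature used, 3 held GAGGAA (CLEC4E, CLEC4D and CLEC12A), as did 23.3% of all windows of that length. The match is a description of letters and not of a binding site. The windows of the neighbours CLEC4E and CLEC4D, the receptors furthest above media in both MRSA and MRSA + PA, and of CLEC12A, an inhibitory receptor, are shown because they hold more than 1 match. Each line gives the 250 bases before the start site, 5′ to 3′ on the strand of the gene, with GAGGAA or its complement TTCCTC in capitals. The CLEC4E window is chr4:158298468-158298717 (minus strand), that of CLEC4D is chr4:158275093-158275342 (plus strand) and that of CLEC12A is chr4:164483912-164484161 (plus strand).
CLEC4E: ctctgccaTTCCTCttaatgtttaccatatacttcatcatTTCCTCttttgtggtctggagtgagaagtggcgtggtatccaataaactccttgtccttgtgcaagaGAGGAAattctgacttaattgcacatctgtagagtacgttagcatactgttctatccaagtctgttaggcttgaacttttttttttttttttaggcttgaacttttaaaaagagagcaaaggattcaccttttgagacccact
CLEC4D: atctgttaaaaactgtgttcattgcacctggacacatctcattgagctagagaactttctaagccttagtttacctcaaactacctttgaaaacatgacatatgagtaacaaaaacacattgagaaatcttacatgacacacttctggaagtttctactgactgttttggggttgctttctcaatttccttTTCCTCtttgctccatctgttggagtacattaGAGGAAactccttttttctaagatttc
CLEC12A: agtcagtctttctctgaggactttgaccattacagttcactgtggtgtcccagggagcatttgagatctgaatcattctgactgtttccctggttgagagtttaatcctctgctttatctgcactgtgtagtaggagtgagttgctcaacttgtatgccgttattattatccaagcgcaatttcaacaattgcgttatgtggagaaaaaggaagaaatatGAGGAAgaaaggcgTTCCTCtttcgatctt
CLEC4E held 3 matches, at positions -242, -210 and -143 from the start site. CLEC4D held 2, at -59 and -27, and CLEC12A held 2, at -30 and -16. The windows of CLEC7A and CLEC5A held none.

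Taken as a group, the receptors were higher in all 3 inoculated libraries than in media. Their summed level was 174 FPKM in media, 526 with MRSA, 480 with PA and 499 with both species. Differences are given below on the log2 scale after 0.1 FPKM was added to both values, over the 15944 features whose mean reached 1 FPKM, a filter that all 8 receptors passed. CLEC6A, with a mean of 1.03, passed through its levels in PA and MRSA + PA, the libraries in which it then counts as higher than media. Against media, 6 of 8 receptors were at least 2-fold higher in MRSA, where 8.47% of all features were; 7 of 8 in PA, against 10.0% of all features; and 7 of 8 in MRSA + PA, against 7.78%. Without CLEC6A the counts were 6 in each library. For CLEC4A they use a minus-strand feature, although RefSeq places Clec4a on the plus strand. The plus-strand CLEC4A feature was at 1.19 with MRSA, 0.62 with PA and 1.04 with both species, and so under 2-fold in PA. No receptor was at least 2-fold lower than media; since 4.95% of all features were with MRSA, 7.80% with PA and 7.83% with both species, a count of 0 among 8 genes is close to the background. The median log2 difference of the 8 receptors was 1.53 with MRSA, 1.61 with PA and 1.73 with both species, beside 0.05, 0.07 and 0.05 over all features. Without CLEC6A the receptor medians were 1.65, 1.53 and 1.71, so the order of MRSA and PA depends on that gene. These 3 comparisons share the single media library, so they are not 3 separate observations of it.

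**Figure D1:**
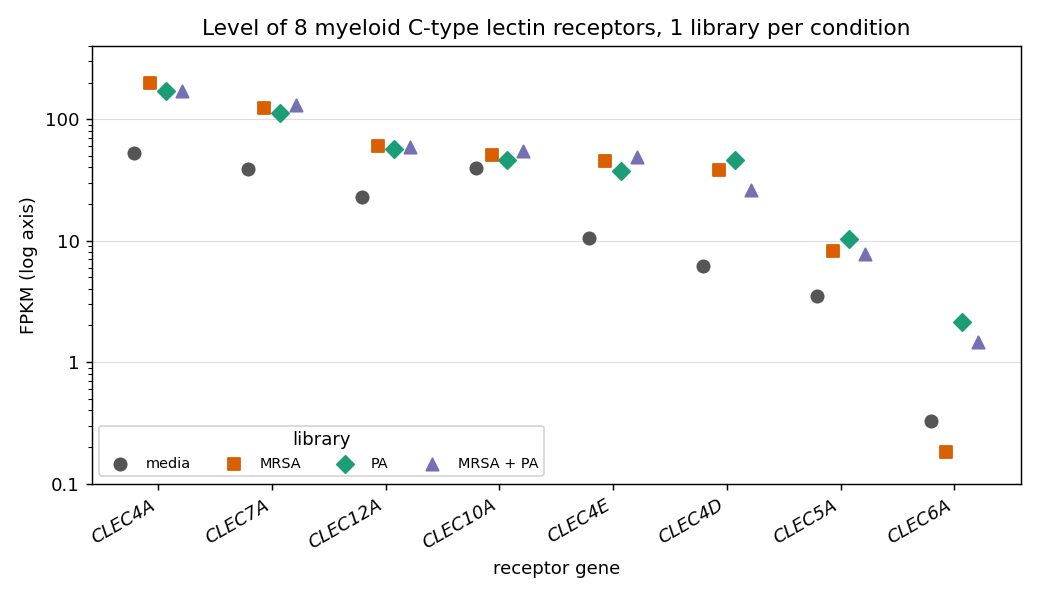
FPKM (log axis) of the 8 receptor genes in each of the 4 libraries, ordered by mean level; each point is 1 library and there are no replicates. The media point lies below the other 3 for 7 genes, by little for CLEC10A, and for CLEC6A the MRSA point is lowest, at 0.180 FPKM.

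CLEC4E encodes Mincle, an activating receptor for mycobacterial cord factor and for a protein of dying cells, which signals through FCER1G. Its level was 10.6 FPKM in media, 45.4 with MRSA, 37.3 with PA and 48.4 with both species. The 3 inoculated libraries lay close together and all far above media, at 4.30, 3.53 and 4.58 times its level. The log2 differences of 2.09, 1.81 and 2.18 were higher than those of 97.6%, 95.7% and 98.1% of all features.

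CLEC4D encodes MCL, also called CLECSF8, which pairs with Mincle on the cell surface and shares its adaptor. It was at 6.16 FPKM in media, 38.2 with MRSA, 45.8 with PA and 26.1 with both species. It stood further above media than any other of the 8 receptors in MRSA (log2 difference 2.61) and in PA (2.87), and second to CLEC4E in MRSA + PA (2.06). Unlike CLEC4E, its level with both species was below that with either species alone, with log2 differences of -0.55 against MRSA and -0.81 against PA, both under 2-fold. The ratio of CLEC4E to CLEC4D was 1.72 in media, 1.19 with MRSA, 0.815 with PA and 1.85 with both species. CLEC4E was the more abundant of the pair in every library but PA.

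CLEC6A is the gene name of Dectin-2, which in mice and humans binds mannans of fungi and signals through FCER1G. The RefSeq entry matched to it in the rat is Clec6a-ps1, a transcribed pseudogene, and whether either CLEC6A feature encodes a receptor was not determined. The feature used had by far the lowest level of the group, 0.326 FPKM in media, 0.180 with MRSA, 2.13 with PA and 1.46 with both species. The libraries fell into a pair near 0 (media and MRSA) and a pair above 1 FPKM (PA and MRSA + PA), a grouping that no other member had. Its log2 difference from media was -0.61 with MRSA, 2.39 with PA and 1.87 with both species. Such low levels make the size depend on what is added: with 1 FPKM added, PA was 1.24 and MRSA + PA 0.89 above media. A second CLEC6A feature, at 0 FPKM in media, 0.156 with MRSA, 0.660 with PA and 0.164 with both species, was also highest in PA. Summed over both features, the MRSA difference turned to 0.03.

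CLEC7A encodes Dectin-1, a receptor for beta-glucan that carries its own activating motif and signals through SYK and CARD9. It was the second most abundant receptor in the inoculated libraries, with 39.0 FPKM in media, 123 with MRSA, 113 with PA and 131 with both species. All 3 inoculated libraries lay near 3 times media, with log2 differences of 1.65, 1.52 and 1.75. CLEC5A encodes MDL-1, which pairs with TYROBP. It was at 3.48 FPKM in media, 8.18 with MRSA, 10.2 with PA and 7.70 with both species, and its log2 differences were 1.21, 1.53 and 1.12. Of the receptors past 2-fold it was the nearest to that limit: it came to 0.95 in MRSA when the libraries were scaled to equal FPKM sums, and to 0.96 in MRSA + PA with 1 FPKM added.

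CLEC4A encodes DCIR, an inhibitory receptor with an ITIM. The feature used for this name, on the minus strand, was the most abundant of the group in every library. RefSeq places Clec4a (Dcir1) on the plus strand, so the feature used may not be the DCIR gene. The feature used was at 52.3 FPKM in media, 199.96 with MRSA, 169 with PA and 171 with both species. This gives log2 differences of 1.93, 1.69 and 1.71. The name is carried by 4 features in a block of neighbouring genes, which the table describes by 3 different protein entries. Closely related copies of DCIR genes lie side by side in rodents, and how the reads were split between the 4 features is uncertain. The first of the other 3 was at 6.25, 38.2, 34.8 and 35.3 FPKM in the order just used, the largest relative difference of the 4. Another was at 33.1, 104, 82.4 and 81.1 FPKM in that order. The last, the only one on the plus strand, was at 19.4, 44.6, 29.8 and 40.0 FPKM and was the only one under 2-fold in PA, with a log2 difference of 0.62. All 4 were lowest in media and highest in MRSA.

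**Figure D2:**
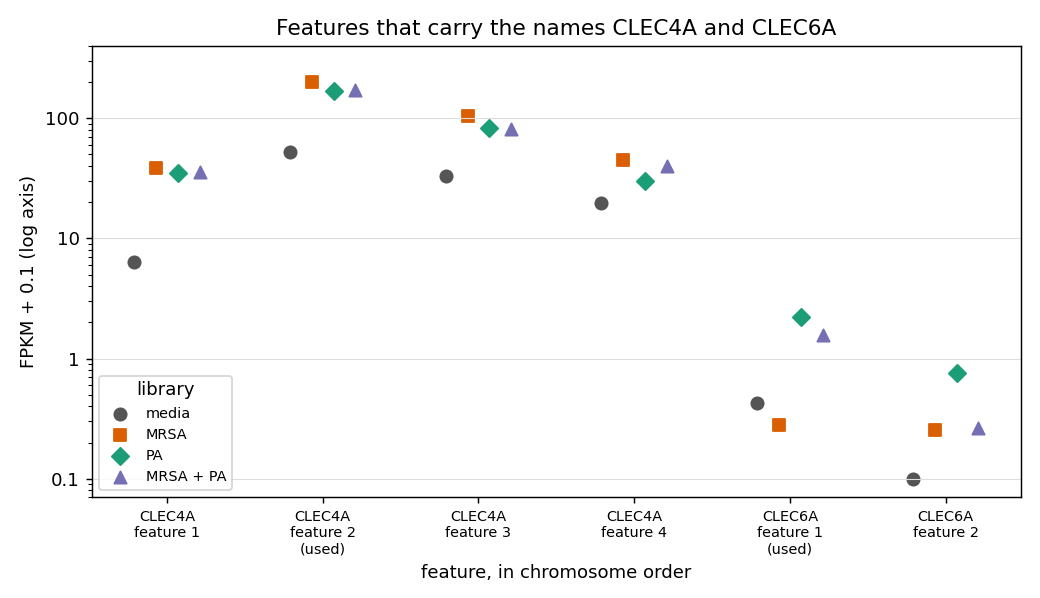
FPKM plus 0.1 (log axis) of the 4 features named CLEC4A and the 2 named CLEC6A, in chromosome order, with 1 point per library. All 4 CLEC4A features are lowest in media, and both CLEC6A features are highest in PA; the features used for each name are marked.

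CLEC12A encodes MICL, an inhibitory receptor that binds uric acid crystals. Its level was 22.8 FPKM in media, 60.3 with MRSA, 57.2 with PA and 58.4 with both species. It varied least among the inoculated libraries, with log2 differences from media of 1.40, 1.32 and 1.35.

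CLEC10A encodes MGL, a receptor for galactose and N-acetylgalactosamine that takes up its ligands and is known from macrophages and dendritic cells. It was at 39.7 FPKM in media, 50.3 with MRSA, 46.2 with PA and 55.0 with both species. It was the only receptor under 2-fold in all 3 comparisons with media, with log2 differences of 0.34, 0.22 and 0.47. In media it ranked second of the 8, level with CLEC7A, and it had rank 4 in each inoculated library. The ratio of CLEC7A to CLEC10A was 0.985 in media, 2.45 with MRSA, 2.43 with PA and 2.39 with both species. CLEC10A made up 22.7% of the summed level of the 8 receptors in media and 9.57% to 11% in the inoculated libraries.

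**Figure D3:**
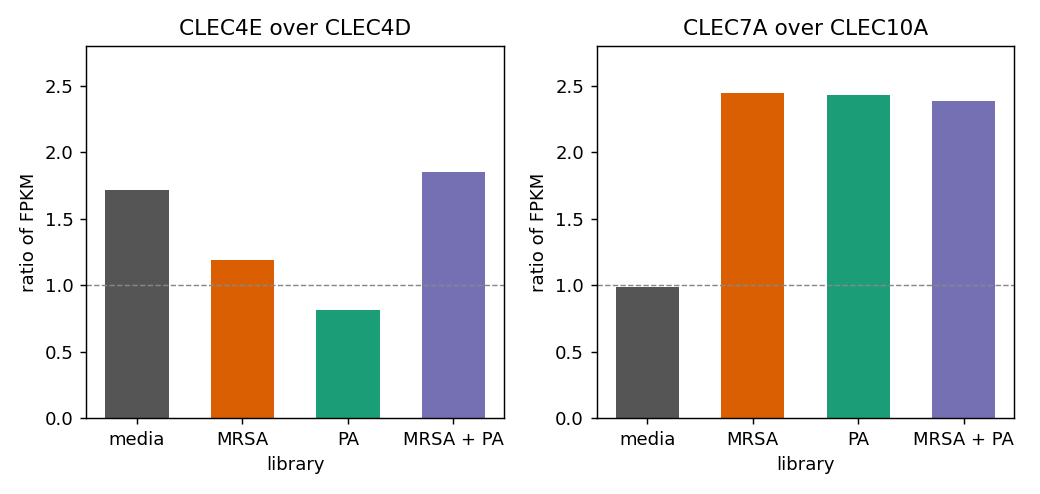
Ratio of FPKM within each library for CLEC4E over CLEC4D (left) and CLEC7A over CLEC10A (right), as bars from 0 with a dashed line at a ratio of 1. The left ratio is 0.815 in PA and 1.85 in MRSA + PA, and the right one goes from 0.985 in media to between 2.39 and 2.45 in the inoculated libraries.

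Between the inoculated libraries few receptors reached 2-fold, and few of all features did. For MRSA + PA against MRSA, 1 receptor (CLEC6A, log2 difference 2.48) was at least 2-fold higher and none was lower, where 1.61% of all features were higher and 5.73% lower. For MRSA + PA against PA, no receptor reached 2-fold in either direction, where 2.50% of all features were higher and 4.27% lower. For MRSA against PA, none was higher and 1 was lower (CLEC6A, -2.99), where 5.03% of all features were higher and 3.54% lower. Both calls are those of CLEC6A, which passed the filter through the libraries where it is high, and without it both counts are 0. Among so few genes, counts of 0 are close to the background in all 3 comparisons. The medians of the 8 receptors were 0.02, 0.02 and 0.10 in these 3 comparisons. They became 0.47, 0.22 and -0.15 with libraries scaled to equal FPKM sums, and 0.01, -0.11 and -0.02 with those sums taken over features of at least 300 bp, so no direction is read from them. Apart from CLEC6A, the widest gaps were those of CLEC4D named above, followed by CLEC5A in MRSA + PA against PA (-0.40).

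The signalling partners were considered next, as 13 adaptors and kinases of the activating receptors. Of these, 8 exceeded media by 2-fold or more in each inoculated library and none was 2-fold lower. Over all features 8.47%, 10.0% and 7.78% were higher and 4.95%, 7.80% and 7.83% lower in MRSA, PA and MRSA + PA. Having none lower among 13 genes is thus close to the background, and the same shares stand beside the list counts below. The medians of the 13 genes were 1.25 with MRSA, 1.10 with PA and 1.10 with both species. FCER1G, the adaptor of Mincle, MCL and Dectin-2, was at 182 FPKM in media, 563 with MRSA, 409 with PA and 390 with both species. TYROBP, the adaptor of MDL-1, had 207, 541, 365 and 552 FPKM in that order of libraries. Both adaptors exceeded every receptor in level in every library. The Src-family kinase FGR stood furthest from media, at 7.78, 32.1, 34.7 and 30.6 FPKM (log2 differences 2.03, 2.14 and 1.96). SYK, a member of the list named after its values were seen, was at 8.0, 23.8, 21.9 and 18.3 FPKM. Within the CARD9 complex the levels were closer to media. CARD9, also named after its values were seen, was at 34.3, 30.1, 35.0 and 32.8 FPKM, with log2 differences of -0.19, 0.03 and -0.07, and BCL10 at 32.1, 42.3, 40.2 and 52.0 FPKM stayed under 2-fold. Dectin-1 thus went from 1.14 times the level of CARD9 in media to 4.09 times with MRSA, 3.21 with PA and 4.0 with both species.

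**Figure D4:**
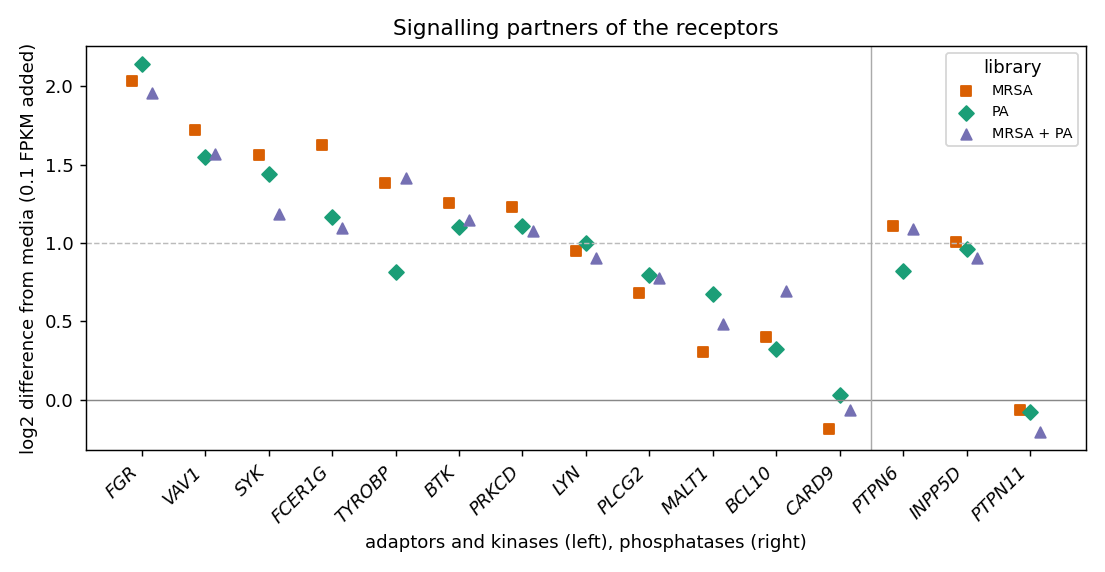
Log2 difference from media (0.1 FPKM added) of adaptors and kinases of the activating receptors and, right of the grey line, 3 phosphatases, with 1 point per inoculated library and a dashed line at 2-fold. FGR lies near 2 in all 3 libraries, and CARD9 and PTPN11 lie near 0.

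Among the 3 phosphatases recruited by inhibitory receptors, PTPN6 (SHP-1) was at 27.9 FPKM in media, 60.1 with MRSA, 49.3 with PA and 59.5 with both species. INPP5D (SHIP-1), at 9.63, 19.4, 18.8 and 18.1 FPKM, reached 2-fold in MRSA alone, with a log2 difference of 1.00. PTPN11 (SHP-2), which is expressed in most cell types, was at 35.4, 33.8, 33.5 and 30.7 FPKM. The ratio of the CLEC4A feature used, on the minus strand, to PTPN6 was 1.88 in media and 3.32, 3.43 and 2.87 in MRSA, PA and MRSA + PA. The ratio depends on the feature. RefSeq places Clec4a on the plus strand, and the plus-strand CLEC4A feature was below PTPN6 in every library, at 19.4, 44.6, 29.8 and 40.0 FPKM. Of the features with this name, only the plus-strand one shares the strand of RefSeq Clec4a (Dcir1). The CLEC4D and CLEC4E features also share the strands of their RefSeq entries. Sequences were not compared, so the feature used is not shown to encode DCIR.

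Cytokine and enzyme genes known to be induced through CARD9 were mixed. Of 16 listed, 11 passed the filter, and 6 of these with MRSA, 5 with PA and 6 with both species exceeded media by 2-fold or more. None was 2-fold lower, which among 11 genes is close to the background. IL1B, an inflammatory cytokine, was at 17.3 FPKM in media, 57.1 with MRSA, 65.1 with PA and 54.6 with both species. CCL3, a chemokine of monocytes, was at 3.15, 23.6, 16.3 and 16.2 FPKM, the largest difference among the genes of the list that passed the filter. IL12B, a subunit of interleukins that drive T cell responses, was at 0.380, 2.09, 0.524 and 1.30 FPKM and so stayed near media in PA. With a mean of 1.07, it passed the filter through MRSA and MRSA + PA, the libraries in which it then counts as higher. CXCL1, a neutrophil attractant, was at 51.7, 40.5, 31.3 and 26.7 FPKM, highest in media.

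Of 25 other C-type lectin receptors listed, 20 were matched by name and 14 passed the filter. At least 2-fold higher were 4 with MRSA, 3 with PA and 4 with both species, and the medians of 0.41, 0.71 and 0.74 were below those of the 8 receptors. MRC1, the mannose receptor, was at 35.0 FPKM in media, 57.0 with MRSA, 67.0 with PA and 47.6 with both species. COLEC12, a scavenger receptor of stromal and endothelial cells, was more abundant, at 129, 113, 103 and 129 FPKM, and showed no 2-fold difference. OLR1, a receptor for oxidised lipoprotein, was at 1.0, 7.15, 15.5 and 8.16 FPKM, and CD69, an early activation marker of lymphocytes, at 0.821, 9.0, 5.52 and 8.47 FPKM.

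In bulk RNA, fewer cells of a type and less RNA per cell cannot be told apart, so the receptors were set beside markers of the cells that could carry them. All 8 pan-leukocyte markers were above media in the inoculated libraries, with medians of 1.49, 1.35 and 1.48 in MRSA, PA and MRSA + PA, and their summed level went from 573 FPKM in media to between 1332 and 1553. The macrophage and monocyte list had medians of 1.21, 1.03 and 1.10, with 11, 7 and 8 of its 14 measured genes at least 2-fold higher. ADGRE1, the F4/80 antigen of macrophages, was at 19.7 FPKM in media, 112 with MRSA, 74.3 with PA and 77.0 with both species. The summed level of the macrophage and monocyte list was 768 FPKM in media and 1611 to 1902 in the inoculated libraries. MARCO, 1 marker of that list, was at or near 0 in all 4. Dendritic cell markers had medians of 1.26, 0.94 and 1.03, and their sum went from 61.4 FPKM to between 115 and 121. The part of these cell types in the receptor levels was not tested.

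Against the macrophage and monocyte median, 6 of 8 receptors were higher with MRSA, 7 with PA and 7 with both species, by a median of 0.32, 0.58 and 0.63. CLEC6A differed from that median by -1.81 with MRSA, 1.36 with PA and 0.78 with both species. It passed the filter through PA and MRSA + PA, so the larger counts there follow from the filter. The medians include CLEC6A too, so no step between libraries is read from them. The counts include CLEC5A, which was within 0.03 of that median with MRSA and with both species, and the markers themselves spread from 0.12 to 2.50 with MRSA, 0.70 to 2.3 with PA and -0.04 to 2.03 with both species. Against the pan-leukocyte median the counts were 4, 6 and 5 of 8, with medians of 0.03, 0.26 and 0.24. These too include CLEC6A in PA and MRSA + PA, where it differed by 1.04 and 0.39, and not in MRSA (-2.10). CLEC4D exceeded the macrophage median by 1.40 with MRSA, 1.84 with PA and 0.97 with both species, and CLEC4E by 0.88, 0.78 and 1.09. CLEC12A differed from it by 0.19 to 0.29. CLEC10A lay below it in all 3 comparisons, by -0.87, -0.81 and -0.63.

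Neutrophil markers did not move as one list. Of 12 measured, 3 were 2-fold above media with MRSA, 3 with PA and 4 with both species, while 1, 2 and 1 lay 2-fold below media. Over all features 8.47%, 10.0% and 7.78% lay as far above media and 4.95%, 7.80% and 7.83% as far below. The medians of the list were 0.48, -0.08 and 0.45, and its summed level was 585 FPKM in media and 707 to 800 in the inoculated libraries. CSF3R, the receptor for granulocyte colony-stimulating factor, was highest in PA, at 2.25 FPKM in media, 9.04 with MRSA, 30.4 with PA and 10.1 with both species. S100A8, the most abundant, was at 196, 277, 287 and 306 FPKM, and LTF was at or near 0 in all 4 libraries. FPR2, a formyl peptide receptor, was highest in media, at 75.3, 4.99, 8.77 and 4.86 FPKM. MMP9, a gelatinase of neutrophil granules, was lowest in PA, at 96.1, 116, 71.7 and 210 FPKM.

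**Figure D5:**
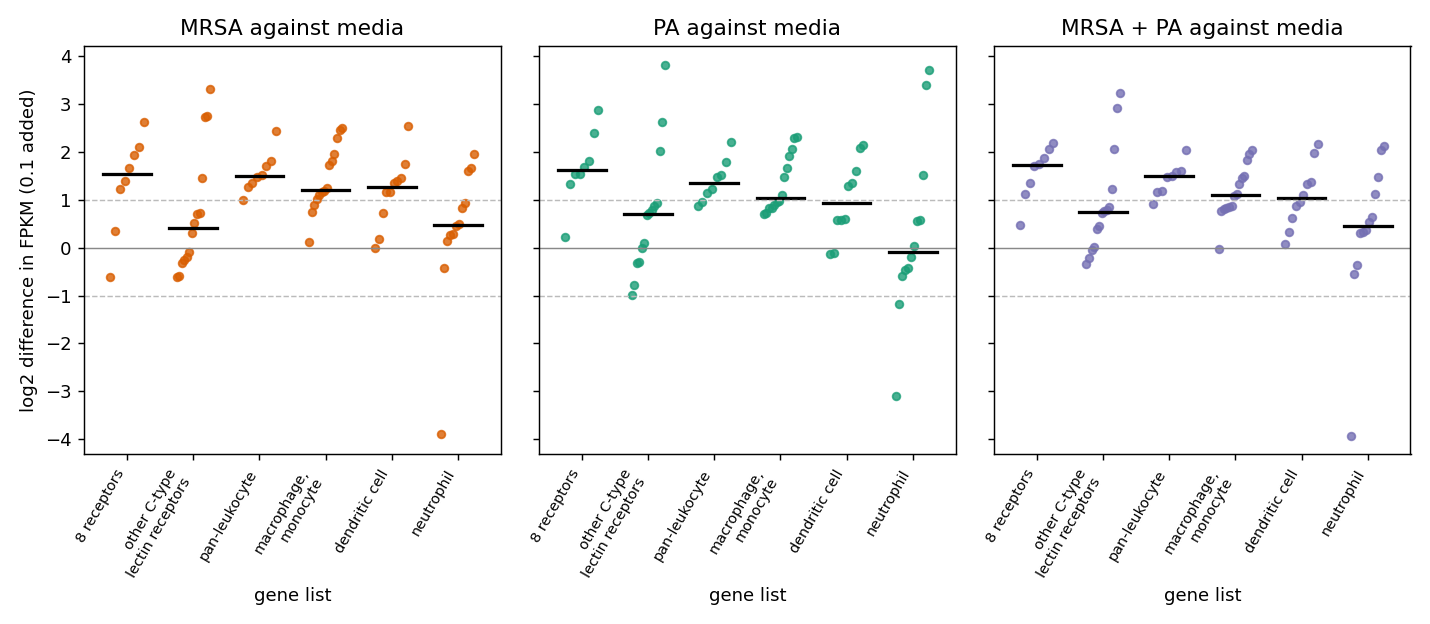
Log2 difference from media (0.1 FPKM added) of each gene that passed the filter in the 8 receptors and 5 other lists, 1 panel per inoculated library, with a black bar at each median and dashed lines at 2-fold. The receptor median, with CLEC6A included, lies at 1.53, 1.61 and 1.73, above the macrophage and monocyte median of 1.21, 1.03 and 1.10.

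The libraries also differed in their content of other tissue. Skeletal muscle markers summed to 9076 FPKM in media and 3513 in MRSA but to 12.7 in PA and 5.09 in MRSA + PA. The part of muscle RNA in the receptor levels was not tested. Epithelial markers were present throughout, with EPCAM between 222 and 266 FPKM, and their summed level was highest in PA, at 1525 FPKM against 743 in media. T cell markers were higher in all inoculated libraries, with medians of 2.39, 2.32 and 2.23 and 8 of 8 genes past 2-fold in each, and so stood further from media than the receptors did. B cell markers had medians of 1.61, 0.74 and 1.23, and endothelial markers of -0.24, 0.03 and -0.16.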

How the data were processed

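Middle ear mucosa RNA of 4 conditions was analysed, 1 library each. The authors deposited FPKM values, which they made from quality-filtered reads; the submitters' notes name the aligner STAR 2.3.0e and, for quantification, Cufflinks 2.1.1. FPKM corrects for the length of a transcript and the size of a library. The paper's methods name a human reference, although the chromosomes are those of the rat; the build is not stated. Another 3 deposited tables hold the authors' own comparisons (log2 ratios, p-values and q-values) and were not used, and 0 columns of values lacked a sample.

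Log2 differences were computed after 0.1 FPKM was added, for features whose mean reached 1 FPKM, in 6 pairs of libraries; 2-fold differences were counted without a test. All 8 receptors are named; other genes were taken from the 3 of highest mean and the 2 of largest difference in each list, and from the 2 nearest patterns of each receptor; SYK, CARD9, MARCO and LTF were named after their values were seen. One gene of the adaptor and kinase list is counted but not reported here. The receptors and lists were chosen with earlier results of these data known. Depth is not given by FPKM. In 506 features with a mean under 0.15 FPKM, values appear to step in single fragments. There the commonest ratio to media was 0.899 with MRSA, 0.887 with PA and 0.925 with both species. Near that ratio lay 51, 33 and 53 of the 506 features, beside a median of 13, 11 and 11 over windows of the same width. That ratio would make a fragment worth nearly the same in every library, but most features lay elsewhere. The paper also applied corrections for multiply mapped reads and fragment bias, so this is a rough guide. Upstream sequences came from RefSeq (GRCr8). The arithmetic was tested on simulated data. Alternatives were 1 or 0.01 FPKM added, a minimum mean of 5 FPKM or none, 3 other scalings, the sum of all features of a symbol, and a 1.5-fold or 3-fold limit. Python 3.11.15, numpy 2.4.6, pandas 2.3.3 and matplotlib 3.10.9 were used.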

Additional observations from a re-analysis of the deposited data

Results flagged for a closer look

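CLEC6A lay on opposite sides of media in the inoculated libraries: its log2 difference from media was -0.61 with MRSA, 2.39 with PA and 1.87 with both species. With 1 library per condition the difference between these was not tested, and all values rest on levels of at most 2.13 FPKM.

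Features that carry a receptor's name but were not used for it were also above media in all 3 inoculated libraries. Of the other 3 CLEC4A features, each largest in MRSA, the one spanning 75657 bp differed from media by 2.59 on the log2 scale, the one of 12115 bp by 1.64 and the one of 19473 bp by 1.19. The second CLEC6A feature, of 33536 bp, differed by 2.93 in PA, where it was at 0.660 FPKM and media was listed at 0. With MRSA and with both species it was at 0.156 and 0.164 FPKM. Its mean was under the filter of 1 FPKM, so its place above media there is not read as a difference.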

How the results depend on the processing

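CLEC4E, CLEC4D, CLEC7A, CLEC4A and CLEC12A were at least 2-fold above media in all 3 comparisons under every alternative that changed the values. Their log2 differences lay between 1.13 and 3.04, and CLEC10A stayed between 0.08 and 0.65. For CLEC4A this covers the feature used and the sum of all its features. The plus-strand CLEC4A feature alone, the strand on which RefSeq places Clec4a, was at 1.19 with MRSA, 0.62 with PA and 1.04 with both species. Under the 1.5-fold limit 1 receptor (CLEC6A) was lower in MRSA than in media, beside 10.6% of all features, and 1 (CLEC4D) was lower in MRSA + PA than in PA, beside 10.0%; both are near the background. Under the 3-fold limit the receptors above media numbered 4 with MRSA, 4 with PA and 5 with both species, beside 4.16%, 5.34% and 3.71% of all features. The counts with PA and with both species include CLEC6A, which passed the filter through those libraries. The larger count with both species is therefore not read as a difference. Under a minimum mean of 5 FPKM, CLEC6A was left out, so that 6 receptors were higher than media in each inoculated library and 0 receptors differed 2-fold between MRSA + PA and MRSA or between MRSA and PA; the neutrophil median in PA became 0.56. With 1 FPKM added, the skeletal muscle median was -9.29 in PA and -9.95 in MRSA + PA, in place of -10.18 and -11.88. Equal FPKM sums moved the all-feature median against media to -0.21 (MRSA) and 0.23 (MRSA + PA), in place of 0.05 for both. Under that scaling 6.20% of features were 2-fold higher and 7.82% lower in MRSA (8.47% and 4.95% as deposited), and 10.0% higher and 6.38% lower in MRSA + PA (7.78% and 7.83%). Likewise 4.41% were higher and 3.39% lower for MRSA + PA against MRSA, 3.62% and 3.37% for MRSA + PA against PA, and 3.79% and 5.15% for MRSA against PA; the counts of receptors at 2-fold were as before, except 5 in place of 6 in MRSA. The 8 receptors then had medians of 1.26 and 1.90. In PA, equal sums over features of 300 bp or more gave 12.4% higher and 6.23% lower against media.

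The number of fragments behind each value is unknown, 1 library per condition gives no spread, and the media library enters every comparison with media.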

Other observations

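For each receptor, the 2 named genes whose 3 log2 differences from media were most similar were found by Euclidean distance among 10847 features averaging 5 FPKM or more; over 4 libraries this is a description alone. CLEC4A lay nearest to PTPN7, a phosphatase of blood cells (distance 0.012), and to CD300LF, an inhibitory myeloid receptor (0.106). CLEC4E lay nearest to IL2RB, a chain of the interleukin 2 receptor (0.122), and SCIMP, an adaptor of antigen-presenting cells (0.235). CLEC7A lay nearest to CNR2, cannabinoid receptor 2 (0.072), and the cation channel TRPM2 (0.112), CLEC12A to the chemokine receptor CCR7 (0.058) and thromboxane synthase TBXAS1 (0.059), and CLEC5A to PITPNC1 (0.090) and complement factor CFB (0.10). CLEC4D had only 4 features within 0.5, nearest SIT1 (0.354) and TRBV12-3 (0.476), both known from T cells. No feature lay within 0.5 of CLEC6A, whose nearest genes were KRT5, a keratin of basal epithelial cells (1.14), and STRA6 (1.16). CLEC10A had 3302 features within 0.5, nearest TMEM168 (0.025) and SLC25A44 (0.027).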
